A study of Bos taurus with 24 samples.

Results

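The genes described here are the cyclins, the cyclin-dependent kinases (CDKs) and their inhibitors, the subunits of the anaphase-promoting complex (APC/C), the spindle checkpoint genes, the aurora, polo-like, WEE and checkpoint kinases, the CKS and PTTG genes and the remaining genes with a CDC symbol. They were picked out by their symbols, leaving out CCNB1, CCNB2, CDK1 and the CDC42 genes, by a rule that holds no measured value but was written with earlier results of these data known. The rule found 105 of the 11306 genes of the deposited table. RNA had been sequenced from 24 libraries of bovine oocytes, 6 in each of 4 groups: germinal vesicle (GV) and metaphase II (MII) oocytes, collected in May (spring) and in July (summer). The donors of all 4 groups were non-lactating, non-pregnant Angus-based crossbred beef cows of Bos taurus descent, from which oocytes were aspirated through ovum pick-up. GV oocytes were arrested in meiotic prophase, and MII oocytes had been matured in vitro for 24 h in medium with FSH and serum. Cumulus cells were removed from both. According to the methods each library was a pool of 4 oocytes of 1 animal, whereas the submitters' extraction protocol speaks of individually lysed cells. Neither source says which cow gave which pool. The study had fewer cows than a pair of groups has pools. Pools of different groups must therefore share cows, if the pools of each group came from different cows.

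A fully grown oocyte is held in prophase by keeping the mitotic kinase complex of CDK1 and cyclin B inactive. CDC25 phosphatases activate that complex and WEE kinases inhibit it, while aurora and polo-like kinases build the spindle. The spindle checkpoint restrains the APC/C, a ubiquitin ligase that with CDC20 marks securin and cyclins for destruction, until chromosomes are attached. Transcription is largely silent between the GV and the MII stage, so that the mRNA of a maturing oocyte is mostly the stored maternal pool, which is degraded, polyadenylated or kept gene by gene.

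The authors deposited the values as normalized counts. They are read here as FPKM, the unit of the methods: fragment counts corrected for exon length and for the mapped fragments of a library. The total of a library was always between 86768.1 and 86768.2, so each value is a share of its library. Less RNA of a gene per oocyte and more RNA of other genes cannot be told apart in such values. The libraries were primed at the poly(A) tail, so a change in the amount of an mRNA and a change in its tail cannot be told apart either. The depth relative to the first May GV library, estimated from the smallest steps between low values, was 0.0565 in May GV library 6, 0.149 in May MII library 6 and 0.393 in July GV library 2. These 3 are called shallow here. It was between 0.542 and 6.51 in the other 21. Of 16 oocyte markers, 13 were listed and 11 had a median of at least 1 FPKM in some group. Of 22 cumulus and granulosa markers, 21 were listed and 6 reached that level (HAS2, PTGS2, STAR, CYP11A1, KRT8 and KRT18). STAR had group medians of 14.8 to 24.5 FPKM and KRT8 of 18.0 to 26.9 FPKM. At the other end, FSHR was at the lowest value of the table, 0.01, in 21 of the 24 libraries. The summed cumulus markers ran from 38.2 to 588 in May GV, 35.1 to 162 in May MII, 34.1 to 124 in July GV and 27.2 to 85.4 in July MII, with the highest value in May GV library 6.

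Levels among the 105 genes spanned 5 orders of magnitude per length. PTTG1, CKS2, CKS1B, CDK2AP2 and AURKA averaged over 100 FPKM across the 24 libraries, 24 genes averaged over 10, and 17 were under 0.1. The summed FPKM of the set made up a median 2.41% of the library total in May GV (range 1.80% to 3.21%) and 4.76% in May MII (2.86% to 5.39%). In July the medians were 2.75% in GV (2.02% to 3.03%) and 4.56% in MII (3.47% to 6.21%). Most of this was carried by 5 genes, which held a median 64.8% of the sum in May GV, 81.9% in May MII, 70.8% in July GV and 82.9% in July MII. PTTG1 alone held 33%, 47.4%, 44.6% and 51.1% in the same order. The sums are descriptions of shares, with no test.

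**Figure D1:**
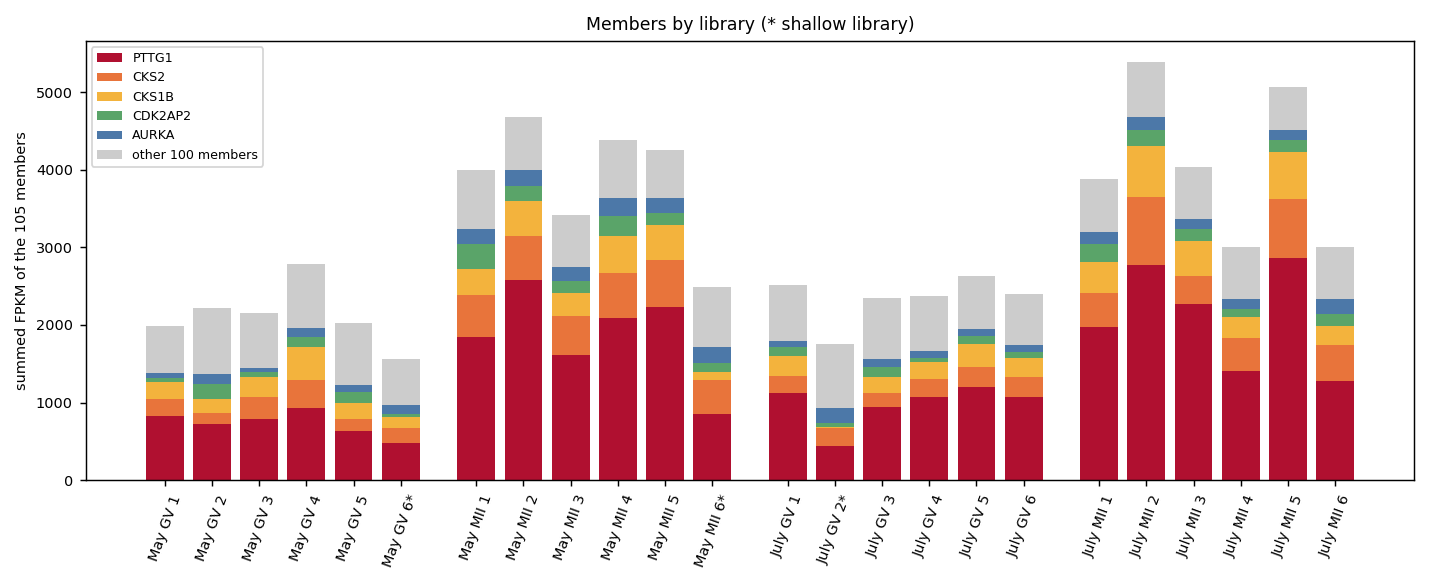
Stacked bars give the summed FPKM of the 105 genes in each of the 24 libraries (vertical axis, linear from 0), split into the 5 most abundant genes and the other 100, with shallow libraries starred. The sums ran from 1559 to 2786 in May GV, 2484 to 4679 in May MII, 1752 to 2632 in July GV and 3006 to 5391 in July MII, and of the 5 named genes PTTG1 was the largest segment of every bar.

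For the comparison of MII with GV oocytes, which addresses what happens to these transcripts during maturation, 98 of the 105 genes were tested. The other 7 (CDC20B, CDK14, CDK5R1, CDK6, CDKL3, CDKL4 and CHEK2) were never over 0.1 FPKM. The test was limma on log2(FPKM + 1), and calls needed both an unadjusted p under 0.05 and more than 2-fold on that scale, the thresholds of the study. In May, 14 genes were higher and 5 lower in MII oocytes. Over all 9526 genes tested, 3.57% were called higher and 8.25% lower, 11.8% in all. In July, 8 were higher and 6 lower, where 2.2% and 9.26% of all genes were called, 11.5% in all. These shares cover genes of every level. Counts for genes averaging at least 1 FPKM are given below with the CDKs of low level. The median log2 change was 0.09 in May and 0.03 in July over the tested members, and -0.03 and -0.02 over all genes. An unadjusted p under 0.05 alone was met by 42 members in each month, beside 38.8% of all genes in May and 42.1% in July. When calls rested on the adjusted p (Benjamini-Hochberg, under 0.05) alone, 19 members were higher and 9 lower in May, beside 9.45% and 14.7% of all genes, and 13 higher and 15 lower in July, beside 7.67% and 23.1%. The 6 MII libraries lay wholly above the 6 GV libraries for 12 members in May and 7 in July (4.65% and 3.07% of all genes) and wholly below for 6 and 11 (8.98% and 14.7%).

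The split between higher and lower calls moved with quantile normalization in both months, and with median-of-ratios scaling in July but hardly in May. Of all called genes, 30.2% were higher in MII in May, 46.2% after quantile normalization and 29.97% after median-of-ratios scaling. In July these were 19.2%, 42.4% and 35.1% in the same order. Among the members the calls in May were 16 higher and 4 lower after quantile normalization and 14 and 5 after median-of-ratios scaling. In July the calls among the members were 12 and 6 after quantile normalization and 11 and 6 after median-of-ratios scaling. Without the 3 shallow libraries they were 11 and 6 in May and 6 and 5 in July.

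In both months CCNA2, CDC26, CDC5L, CHEK1, CKS2 and PTTG1 were called higher in MII, which were 42.9% of the May and 75% of the July calls in that direction. ANAPC13, AURKAIP1, CDKN2AIPNL, MAD2L2 and PLK1 were called lower in both, 100% of the May and 83.3% of the July calls. Over all genes tested, 1.42% were called higher and 7.3% lower in both months. The 2 comparisons share no library, but their pools came from the same group of cows. AURKA, CDC27, CDC37L1, CDK2, CDK2AP1, CDK2AP2, CDKN2AIP and PLK2 were called in May alone, and CDK5, CKS1B and MAD2L1 in July alone, though none of these differed between the months by the test of that difference given below.

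**Figure D2:**
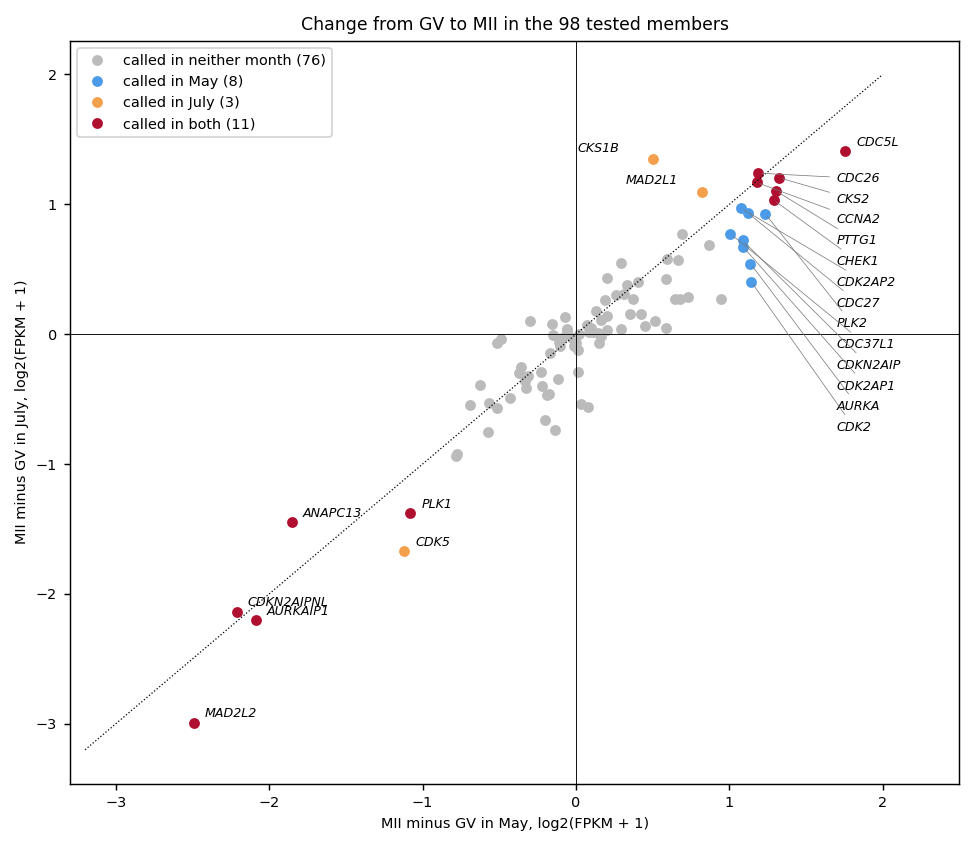
Each point is 1 of the 98 tested genes, placed by its MII minus GV difference on the log2(FPKM + 1) scale in May (horizontal axis) and in July (vertical axis); the dotted line marks equal differences. The 11 genes called in both months lie in the upper right and lower left, with MAD2L2 lowest at -2.49 and -2.99 and CDC5L highest in both at 1.76 and, in July, 1.41.

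PTTG1 (UMD3.1.1 chr7:74119667-74127288) encodes securin, the inhibitor of separase that keeps sister chromatids joined until the APC/C removes it. It was the most abundant member. In May its lowest, median and highest values were 473, 757 and 927 FPKM in GV and 848, 1967 and 2584 FPKM in MII oocytes. In July they were 440, 1075 and 1206 FPKM in GV and 1284, 2120 and 2858 FPKM in MII. MII libraries were higher in both months, and the groups overlapped only in May, where the shallow MII library 6 lay below the highest GV library. The mean rose 2.56-fold in May (log2 change 1.30, SE 0.26, limma adjusted p = 0.0036) and 2.14-fold in July (1.10, SE 0.29, limma adjusted p = 0.0115). Without July GV library 2, which held the lowest GV value, the July log2 change was 0.89 and was no longer over 2-fold.

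CKS2 and CKS1B encode small subunits that bind CDKs and help them recognise phosphorylated substrates. CKS2 (chr8:90300716-90305612) had 144, 208 and 369 FPKM (lowest, median, highest) in May GV and 445, 555 and 611 FPKM in May MII. The July values were 187, 229 and 254 FPKM in GV and 366, 448 and 875 FPKM in MII. The stages did not overlap in either month. The mean rose 2.38-fold in May (log2 change 1.32, SE 0.23, limma adjusted p = 0.00167) and 2.43-fold in July (1.21, SE 0.23, limma adjusted p = 0.00163). CKS1B (chr3:15667481-15670987) averaged 235 ± 97.7 FPKM (SD, n = 6) in May GV and 348 ± 139 in May MII, a log2 change of 0.50 that was not called. In July it averaged 205 ± 95.6 in GV and 436 ± 168 in MII and was called at a log2 change of 1.35 with a limma adjusted p of 0.0953. In July GV library 2 CKS1B was at 20.4 FPKM against 197 to 292 in the other 5, and without that library the log2 change was 0.76. The call held in 7 of 12 fits that left out 1 library: it was also lost without July MII library 1, 2, 3 or 5, under quantile normalization and with a replicate block. PTTG1IP (chr1:145057827-145075460), which encodes a securin-binding protein, went the other way from its partner at a far lower level. It averaged 1.29 ± 0.56 FPKM in May GV and 0.53 ± 0.24 in May MII, and 1.37 ± 0.73 and 0.36 ± 0.11 in July, with no overlap of stages in either month (limma adjusted p = 0.0305 and 0.00785, less than 2-fold on the log2(FPKM + 1) scale).

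**Figure D3:**
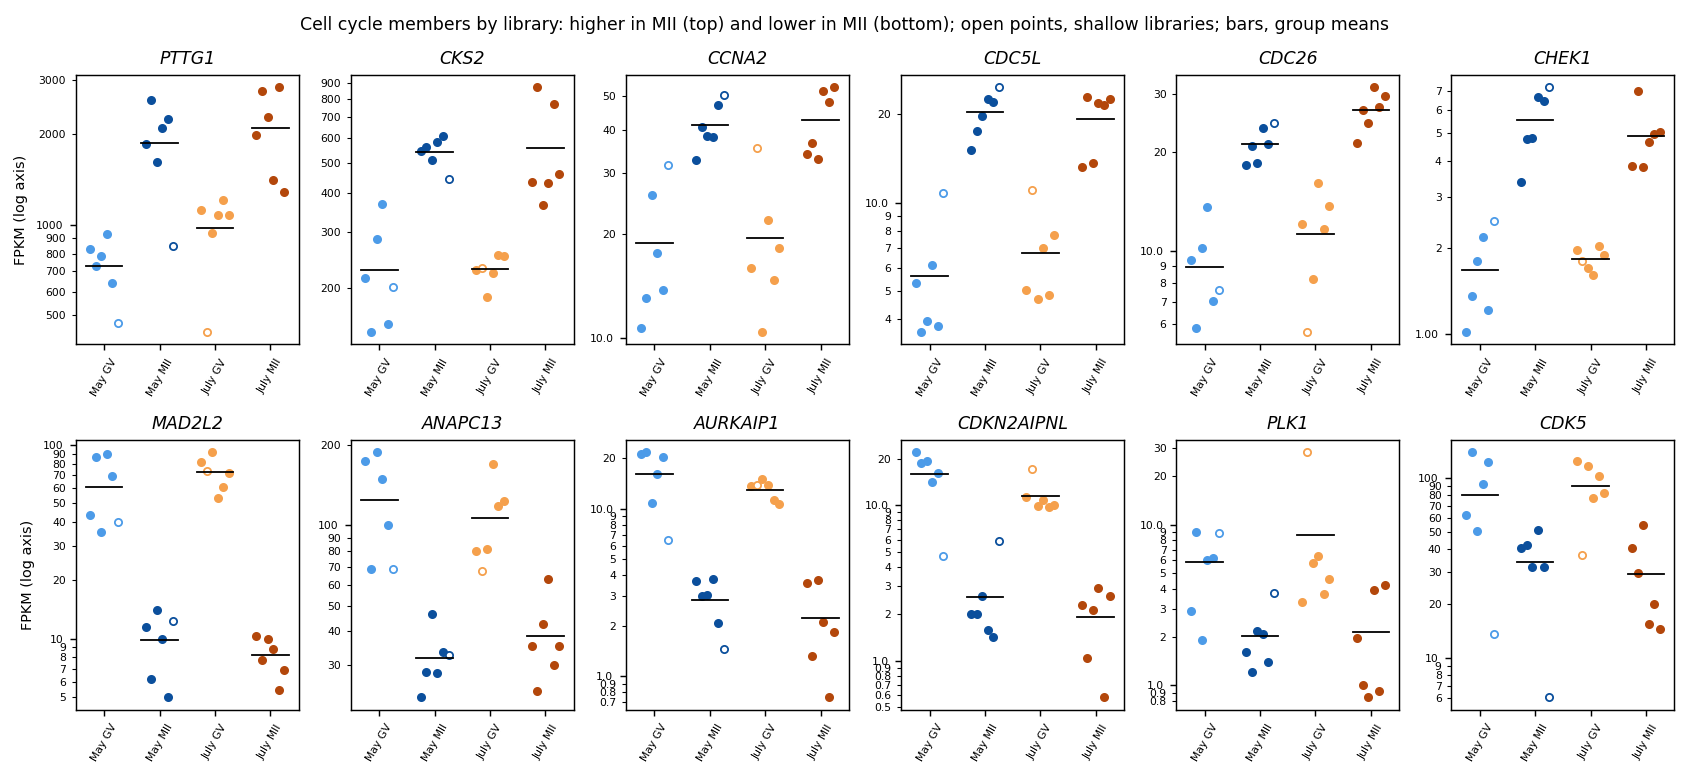
FPKM of 12 genes in every library (log axis, points; horizontal bars are group means, n = 6), with shallow libraries as open points: 6 genes called higher in MII in both months on top, and below them 5 called lower in both months and CDK5, called in July alone. MAD2L2, ANAPC13 and AURKAIP1 do not overlap between the stages of either month, while PLK1 and CDK5 do in both.

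Of 19 genes with a cyclin symbol (CCN), all tested, CCNA2 was the only one called in either month. The 19 include CCNB1IP1 and CCNDBP1, which encode proteins that bind cyclins. Cyclin A2 partners CDK2 and CDK1 in S phase and at the entry into division. CCNA2 (chr6:3413086-3419197) had 10.7, 15.7 and 31.5 FPKM in May GV and 32.8, 39.5 and 50.5 FPKM in May MII. The July values were 10.4, 17 and 35.4 FPKM in GV and 32.8, 42.3 and 53.2 FPKM in MII. MII was higher by 2.19-fold in May and 2.2-fold in July (log2 change 1.18, SE 0.27, and 1.17, SE 0.26, limma adjusted p = 0.00727 and 0.00514). The stages were apart in May and overlapped in July through the shallow GV library 2, the highest of its group. The other cyclins called by the adjusted p alone were limited to CCNT1 in May, a partner of CDK9 in transcription, at 0.049 ± 0.034 FPKM in GV and 0.122 ± 0.024 in MII. The G1/S cyclin CCNE1 averaged 0.29 and 0.68 FPKM in May GV and MII and 0.33 and 0.73 in July, with limma adjusted p of 0.213 and 0.0549. Its relative CCNE2 averaged 0.38, 0.22, 0.37 and 0.24 FPKM in the same order. Both were far below CCNA2.

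The D cyclins, which start the somatic G1 phase with CDK4 and CDK6, were scarce. CCND3 ranged from 0.171 to 1.44 FPKM over all libraries. CCND2 had group medians between 0.01 and 0.0123 FPKM, and May GV library 3 stood alone at 0.39. CDK4 averaged 0.53 ± 0.53 FPKM in May GV and 0.14 ± 0.09 in May MII, and 0.38 ± 0.20 and 0.12 ± 0.06 in July, where the stages did not overlap (limma adjusted p = 0.0182). CDK6 never exceeded 0.0306 FPKM. The rule also covers CCNA1, CCNB3 and CCND1, but no genes with these symbols were listed.

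Of the 15 CDK genes, 13 were tested, and 1 was called higher in May and 1 lower in July. CDK2 (chr5:57664374-57669058), the partner of cyclins A and E, had 0.618, 1.77 and 3.65 FPKM in May GV and 3.57, 5.23 and 7.26 FPKM in May MII. MII was higher, with the highest GV library just over the lowest MII library (2.75-fold, log2 change 1.14, SE 0.26, limma adjusted p = 0.00708). In July its means were 2.43 ± 1.68 and 3.53 ± 2.21 FPKM, a log2 change of 0.40 (SE 0.32) that was not called. CDK5 (chr4:114429163-114433470), a kinase activated outside the cell cycle by p35-type partners, had the highest FPKM of the listed CDKs. It had 37.4, 93.0 and 124 FPKM in July GV and 14.4, 24.8 and 54.5 FPKM in July MII, and fell by 1.67 on the log2 scale (SE 0.37, limma adjusted p = 0.0051), with some overlap. In May its means were 80.0 ± 47.0 and 34.1 ± 15.5 FPKM, a log2 change of -1.12 (SE 0.59, exact permutation p = 0.123). The shallow libraries of May were the lowest of both stages, at 13.5 and 6.01 FPKM. CDK7, the CDK-activating kinase, averaged 6.98 and 12.1 FPKM in May GV and MII and 7.36 and 14.6 in July, without a call.

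Some CDKs of low level fell by the adjusted p in at least 1 month. CDK10 (chr18:14610728-14617872) averaged 0.55 ± 0.30 FPKM in May GV and 0.069 ± 0.050 in May MII, and 0.73 ± 0.83 and 0.088 ± 0.074 in July, with no overlap in either month (limma adjusted p = 0.00625 and 0.0519). CDK20 averaged 0.68 and 0.23 FPKM in May and 0.68 and 0.19 in July (limma adjusted p = 0.0204 and 0.00982). CDK3 averaged 0.71 ± 0.37 FPKM in July GV and 0.16 ± 0.16 in July MII (limma adjusted p = 0.0108). None of these reached 2-fold on the log2(FPKM + 1) scale, which understates the fold of genes under 1 FPKM. All 19 members called in May and all 14 called in July averaged at least 1 FPKM, as did 56 of the 98 tested. On log2(FPKM) with nothing added, 18 further members passed in May, 9 in each direction, and 21 in July, 6 higher and 15 lower. Of these, 10 in May and 12 in July averaged under 1 FPKM, and no call was lost. With nothing added, 1371 of all 9526 genes were called higher and 2165 lower in May, and 830 and 2762 in July.

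Among 12 CDK-like and CDK-associated genes, CDK2AP1 and CDK2AP2 were called higher in May and none in July. Both encode proteins that bind CDK2. CDK2AP2 (chr29:46033674-46035478) averaged 103 ± 59.1 FPKM in May GV and 199 ± 75.7 in May MII, and 88.8 ± 36.6 and 168 ± 48.8 in July; the log2 changes were 1.07 and 0.97 (limma adjusted p = 0.0647 and 0.0304). CDK2AP1 (chr17:54556011-54566575) averaged 8.64 ± 2.24 and 19.5 ± 4.97 FPKM in May (log2 change 1.09, SE 0.22, limma adjusted p = 0.00355). Without the shallow libraries neither was over 2-fold, and the May call of CDK2AP2 was also lost without May GV library 1, 3 or 6 or May MII library 1 or 4. CDK5RAP3 averaged 1.54 and 0.42 FPKM in May and 1.88 and 0.48 FPKM in July GV and MII (limma adjusted p = 0.0215 and 0.0038).

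The 9 CDKN genes gave calls only for 2 that are not CDK inhibitors. CDKN2AIPNL (chr7:47549844-47556033) encodes a protein that binds the exonuclease XRN2. It had 4.69, 17.5 and 22.0 FPKM in May GV and 1.42, 2 and 5.85 FPKM in May MII, and 9.71, 10.4 and 17.2 FPKM in July GV and 0.578, 2.2 and 2.91 FPKM in July MII. It was lower in MII in both months, and only the 2 shallow May libraries brought the stages into overlap. It fell by 2.21 on the log2 scale in May (SE 0.36, limma adjusted p = 0.00103) and by 2.14 in July (SE 0.24, limma adjusted p = 5.49e-05). Its relative CDKN2AIP (chr27:13295351-13298892), whose product binds the tumor suppressor ARF, was called higher in May, at 5.74 ± 3.53 FPKM in GV and 15.7 ± 16.1 in MII (log2 change 1.09, limma adjusted p = 0.0849). That mean held the shallow May MII library 6 at 48.3 FPKM, and without it the log2 change was 0.70; the call was also lost without May GV library 2 or 5. The inhibitors themselves were not called. CDKN1A (p21) averaged between 0.23 and 0.63 FPKM in the 4 groups. CDKN1B (p27) varied widely among libraries, from 0.743 to 22.7 FPKM, and CDKN1C (p57) from 1.31 to 46.9 FPKM.

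Among the aurora and polo-like kinase genes, AURKA and PLK1 went in opposite directions in May. Aurora A builds the spindle poles, and polo-like kinase 1 acts from spindle assembly to cytokinesis. AURKA (chr13:60092043-60107181) had 53.3, 101 and 135 FPKM in May GV and 180, 204 and 232 FPKM in May MII, with all MII libraries above all GV libraries. It rose 2.11-fold in May (log2 change 1.14, SE 0.24, limma adjusted p = 0.0049). In July it had 80.1, 90.1 and 199 FPKM in GV and 119, 148 and 199 FPKM in MII (log2 change 0.54, SE 0.23, limma adjusted p = 0.0957), and the overlap came from the shallow GV library 2. PLK1 (chr25:21587069-21597614) had 1.93, 6.11 and 9.04 FPKM in May GV and 1.22, 1.86 and 3.75 FPKM in May MII. In July it had 3.31, 5.18 and 28.3 FPKM in GV and 0.841, 1.49 and 4.21 FPKM in MII. It fell by 1.08 on the log2 scale in May (SE 0.32, limma adjusted p = 0.0281) and by 1.38 in July (SE 0.46, limma adjusted p = 0.038), with overlapping stages in both months. The July log2 change was -0.98 without GV library 2, the source of the 28.3 FPKM. The May change was between -0.94 and -1.30 in the 12 fits that left out 1 library, and its call was lost in those without May GV library 2 or 6 or May MII library 2, where it was just under 2-fold.

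The other kinases of these families gave 1 call. PLK2 (chr20:20854607-20860585), a stress-responsive polo-like kinase, averaged 4.60 ± 1.75 and 12.1 ± 3.51 FPKM in May GV and MII (log2 change 1.23, SE 0.27, limma adjusted p = 0.00584) and 6.99 ± 3.72 and 13.6 ± 4.63 FPKM in July (0.93, SE 0.31, limma adjusted p = 0.038). AURKC, the aurora kinase typical of meiosis, was the second most abundant aurora with group means of 25.6 to 34.4 FPKM, and AURKB, its chromosomal passenger counterpart, had 16.1 to 23.6 FPKM. Neither was called, nor were PLK3 (5.02 to 8.71 FPKM) and the centriole kinase PLK4 (0.308 to 0.509 FPKM). AURKAIP1 (chr16:52398515-52402985) is named for its binding to aurora A, and its product is also a protein of the small mitochondrial ribosomal subunit. It had 6.5, 18.3 and 21.8 FPKM in May GV and 1.45, 3.05 and 3.79 FPKM in May MII, and 10.6, 13.7 and 15.0 FPKM in July GV and 0.747, 1.97 and 3.78 FPKM in July MII. The stages were fully apart in both months, and it fell by 2.09 in May and 2.2 in July on the log2 scale (SE 0.30 and 0.24, limma adjusted p = 0.000507 and 4.54e-05).

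CHEK1 (chr29:29402369-29420347) encodes the checkpoint kinase that answers incomplete replication and DNA damage. It had 1.02, 1.58 and 2.48 FPKM in May GV and 3.38, 5.65 and 7.23 FPKM in May MII. Its July values were 1.61, 1.84 and 2.03 FPKM in GV and 3.81, 4.81 and 6.97 FPKM in MII. No library of one stage reached the other stage in either month. The rise was 3.32-fold in May (log2 change 1.29, SE 0.21, limma adjusted p = 0.00111) and 2.66-fold in July (1.03, SE 0.15, limma adjusted p = 0.000247). CHEK2 never exceeded 0.0956 FPKM. WEE1, the inhibitory kinase of CDK1, was at most 0.219 FPKM in 22 libraries and reached 13.4 FPKM in May GV library 6 and 1.02 FPKM in May MII library 6, the 2 shallowest libraries, which also held the highest and the third highest cumulus marker sums. The part of those markers in the WEE1 values was not tested. The rule covers WEE2, but no gene with that symbol was listed. The CDC25 phosphatases were not called. CDC25B had group means of 3.41 to 6.64 FPKM, CDC25C of 3.74 to 4.83 and CDC25A of 0.074 to 0.157.

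The 12 listed APC/C subunits did not move together. In May 2 were called higher and 1 lower, and 5 and 1 passed the adjusted threshold; in July 1 and 1 were called, and 3 and 2 passed. Their group means ran from 0.098 FPKM (CDC23, May GV) to 125 FPKM (ANAPC13, May GV). ANAPC13 (chr1:135945853-135951508), a small subunit that helps the scaffold of the complex hold together, had 68.4, 125 and 188 FPKM in May GV and 22.6, 30.5 and 46.4 FPKM in May MII. In July it had 67.3, 100 and 171 FPKM in GV and 23.9, 35.2 and 63.1 FPKM in MII. The stages did not overlap. It fell by 1.85 in May (SE 0.30, limma adjusted p = 0.00106) and by 1.45 in July (SE 0.27, limma adjusted p = 0.00178) on the log2 scale, to 0.255 and 0.359 of the GV mean. ANAPC7, which belongs to the same arm of the complex as CDC27, averaged 1.81 ± 1.75 and 0.49 ± 0.25 FPKM in May and 2.13 ± 1.82 and 0.47 ± 0.27 in July (limma adjusted p = 0.0533 and 0.0296).

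CDC26 and CDC27 went up. CDC26 (chr8:104207696-104218858), a small subunit that stabilises CDC16, had 5.86, 8.52 and 13.7 FPKM in May GV and 18.3, 21.0 and 24.5 FPKM in May MII, and 5.68, 11.9 and 16.1 FPKM in July GV and 21.4, 27.2 and 31.6 FPKM in July MII. Every MII library was above every GV library of its month. It rose 2.36-fold in May and 2.39-fold in July (log2 change 1.19, SE 0.21, and 1.24, SE 0.23, limma adjusted p = 0.00192 and 0.00136). CDC27 (chr19:46844166-46901635), a subunit that docks CDC20, had 0.708, 1.25 and 1.41 FPKM in May GV and 2.55, 3.93 and 4.29 FPKM in May MII, and 1.17, 1.26 and 1.79 FPKM in July GV and 2.26, 3.32 and 6.14 FPKM in July MII. Its stages did not overlap in either month. The log2 change was 1.12 in May (SE 0.17, limma adjusted p = 0.000731) and 0.93 in July (SE 0.18, limma adjusted p = 0.0021), the latter under 2-fold on the log2(FPKM + 1) scale although the means differed 2.68-fold.

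The remaining subunits were not called. ANAPC15, which helps free the APC/C from the checkpoint complex, averaged 42.6 ± 11.6 and 76.5 ± 8.72 FPKM in May and 35.9 ± 8.91 and 58.6 ± 17.8 in July (limma adjusted p = 0.013 and 0.0322, under 2-fold). ANAPC4 and CDC23 passed the adjusted threshold in May alone, at 0.66 and 1.5 FPKM for ANAPC4 and 0.098 and 0.266 FPKM for CDC23 in GV and MII. The catalytic RING subunit ANAPC11 averaged 72.4 ± 40.8 and 110 ± 60.2 FPKM in May and 65.4 ± 30.5 and 82.6 ± 52.2 in July. ANAPC10, the co-receptor for substrates, averaged 3.17 ± 1.51 and 1.68 ± 0.53 FPKM in May and 3.17 ± 1.46 and 1.74 ± 0.66 in July, with limma adjusted p of 0.167 and 0.217; the shallow libraries were the lowest of their groups in May GV, May MII and July GV. CDC16 and ANAPC5 reached at most 1.30 and 0.985 FPKM in any library. The activator CDC20 (chr3:103238486-103242374) had group means of 22.5 to 26.5 FPKM, log2 changes of 0.43 (SE 0.47) and 0.16 (SE 0.31), and no call.

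**Figure D4:**
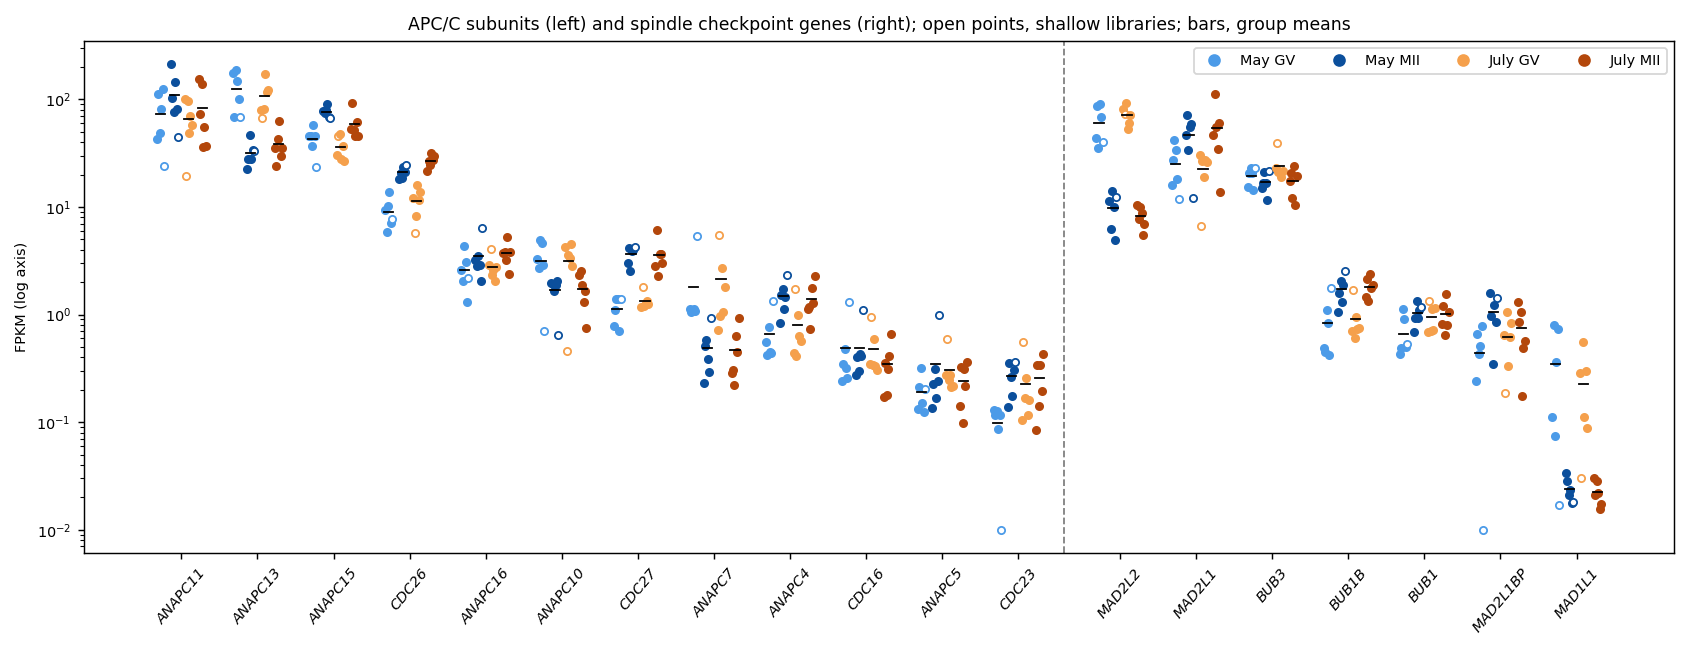
FPKM (log axis) of the 12 APC/C subunits and the 7 genes with a BUB or MAD symbol, with 1 point per library, colours for the 4 groups, open points for shallow libraries and bars for group means (n = 6). ANAPC13 and MAD2L2 were lower and CDC26 and CDC27 higher in MII in both months, while CDC16, BUB3 and BUB1 overlapped between stages.

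Of the 7 genes with a BUB or MAD symbol, MAD2L2 showed the largest fall of the whole set on the log2(FPKM + 1) scale. Its product, REV7, is a subunit of a DNA repair polymerase and of a complex at broken DNA ends, and it can inhibit the APC/C with its CDH1 activator. It is not the MAD2 of the spindle checkpoint. MAD2L2 (chr16:42876001-42881567) had 35.6, 56.2 and 90.2 FPKM in May GV and 4.97, 10.7 and 14.1 FPKM in May MII. In July it had 53.4, 72.4 and 91.8 FPKM in GV and 5.44, 8.33 and 10.4 FPKM in MII. The MII libraries lay far below the GV libraries in both months. It fell by 2.49 in May (SE 0.32, limma adjusted p = 0.000247) and by 2.99 in July (SE 0.19, limma adjusted p = 1.78e-06) on the log2 scale, to 0.162 and 0.114 of the GV mean.

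The checkpoint protein itself, MAD2L1 (chr6:6013172-6020467), was higher in MII with more spread. It averaged 24.8 ± 11.5 and 46.4 ± 21.0 FPKM in May (log2 change 0.82, SE 0.42, limma adjusted p = 0.17) and 22.7 ± 8.75 and 53.9 ± 33.3 FPKM in July, where it was called (1.10, SE 0.47, limma adjusted p = 0.0939, exact permutation test p = 0.0541). Without July GV library 2, at 6.62 FPKM, the July log2 change was 0.80, and the call held in 6 of 12 fits that left out 1 library, being lost also without July GV library 4 or July MII library 1, 2, 3 or 5. BUB1B, a kinase-like checkpoint protein, averaged 0.84 ± 0.53 and 1.74 ± 0.54 FPKM in May and 0.90 ± 0.40 and 1.82 ± 0.39 in July (limma adjusted p = 0.0533 and 0.0151). BUB1 averaged 0.66 to 1.03 FPKM and BUB3 17.1 to 24.1 FPKM, without a call. MAD1L1, which recruits MAD2 to kinetochores, was at the other end of the scale. It averaged 0.349 ± 0.343 FPKM in May GV and 0.0237 ± 0.0062 in May MII, and 0.228 ± 0.195 and 0.0223 ± 0.0059 in July (limma adjusted p = 0.0624 and 0.0348), and the July stages were apart only narrowly, in GV library 2.

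Of the 16 remaining CDC genes, only CDC5L and CDC37L1 were called. CDC5L (chr23:17731040-17771516) encodes a core protein of the spliceosome. It had 3.62, 4.64 and 10.8 FPKM in May GV and 15.1, 20.9 and 24.8 FPKM in May MII, and 4.69, 6.02 and 11 FPKM in July GV and 13.3, 21.6 and 22.8 FPKM in July MII. The stages did not overlap, and the highest GV value of each month was that of its shallow library. It rose 3.62-fold in May and 2.86-fold in July (log2 change 1.76, SE 0.25, and 1.41, SE 0.23, limma adjusted p = 0.000481 and 0.000686). CDC40, another splicing factor, averaged 0.62 and 1.55 FPKM in May and 0.73 and 1.57 in July (limma adjusted p = 0.0143 and 0.0343, under 2-fold). CDC37L1 (chr8:40077064-40092029), a partner of the chaperone HSP90, averaged 2.42 ± 0.52 and 5.85 ± 0.68 FPKM in May (log2 change 1.01, SE 0.16, limma adjusted p = 0.00107) and 2.54 ± 0.24 and 5.11 ± 0.99 in July (0.77, SE 0.14, limma adjusted p = 0.00138), with no overlap in either month. In the deposited coordinates 3 of the 22 called genes (CDC5L, CDK2AP1 and MAD2L1) overlap another listed gene on the same strand, and how shared reads were counted is not given in the sources used here.

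Other regulators of the same machinery, listed by symbol outside the set, were counted in the same way. Of 46 listed, 34 were in the table and 30 were tested; 6 were called higher and 0 lower in MII in each month, with median log2 changes of 0.25 in May and 0.15 in July. Over all genes tested, 3.57% were called higher and 8.25% lower in May, and 2.2% and 9.26% in July. By the adjusted p, 9 were higher and 1 lower in May, beside 9.45% and 14.7% of all genes, and 7 and 2 in July, beside 7.67% and 23.1%. FBXO5 (EMI1), an inhibitor of the APC/C, averaged 8.64 ± 4.59 and 42.2 ± 19.5 FPKM in May and 11.9 ± 3.14 and 28.9 ± 14.4 in July (log2 change 2.12, SE 0.39, and 1.12, SE 0.31, limma adjusted p = 0.00239 and 0.0167). BORA, the activator of aurora A towards PLK1, SKP1, a subunit of the SCF ubiquitin ligase, and SGO2, the protector of centromeric cohesin, were also called in both months. SGO1 and TPX2 passed the call in May and SKP2 and UBE2C in July. For none of these 4 was the difference between the months called: the July change minus the May change was -0.37, -0.52, 0.10 and 0.05 on the log2 scale. FZR1 (CDH1), the other activator of the APC/C, was lower by the adjusted p at 0.53 and 0.11 FPKM in May and 0.33 and 0.089 FPKM in July.

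The comparison of July with May, the question of summer heat, gave no call in the set at either stage. At these thresholds the paper, using Partek Flow, reported far more genes at both stages than limma called here. With no pseudocount limma called 68 genes higher and 48 lower in July in GV, of 9526. In MII it called 20 and 82, and 0 members at either stage. In GV oocytes limma called 0 of 98 members, 0 had an unadjusted p under 0.05, and no member separated the 6 and 6 libraries, against 0.0315% of all genes called (0.0105% higher and 0.021% lower in July), 1.55% with an unadjusted p under 0.05, and 0.136% wholly higher and 0.042% wholly lower. In MII oocytes 0 were called and 4 had an unadjusted p under 0.05, against 0.042% and 2.11% of all genes; no member was wholly apart, beside 0.0105% of all genes higher and 0.168% lower. No adjusted p was under 0.05 for any gene at either stage. The differences ran from -0.64 (WEE1) to 0.51 (CDC25B) on the log2 scale in GV and from -0.50 (CDK2) to 0.38 (CKS1B) in MII, and were under 0.5 in size for 96 and 98 members. The 95% interval of the difference lay within 2-fold either way on that scale for 78 members in GV and 86 in MII. Of the 98 tested members 42 averaged under 1 FPKM, where log2(FPKM + 1) understates the fold. For those members a small difference or a narrow interval sets no limit on the fold in FPKM. In GV 63 members were higher and 35 lower in July, and 49 and 49 after median-of-ratios scaling. In MII 30 were higher and 68 lower, and 52 and 46 after that scaling, so no direction of the set is given.

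The smallest unadjusted p values in MII belonged to AURKA, CDC26 and CDKN1A. AURKA averaged 204 ± 18.1 FPKM in May MII and 151 ± 29.2 in July MII (log2 difference -0.44, 95% interval -0.76 to -0.13, exact permutation p = 0.00649, limma adjusted p = 1). CDC26 averaged 21.2 ± 2.54 and 26.9 ± 3.60 FPKM (0.33, interval 0.04 to 0.62, exact permutation p = 0.0108), and CDKN1A 0.385 ± 0.133 and 0.231 ± 0.044 FPKM (-0.16, exact permutation p = 0.026). ANAPC15 was the remaining one (-0.42, interval -0.81 to -0.02, exact permutation p = 0.0346). None passed adjustment over 9526 genes, and the libraries of the 2 months overlapped for all 4. In GV the smallest p values were those of CDC23, ANAPC5 and CCNT1, all with means under 0.4 FPKM in both months. A 2-fold difference lay outside the interval at both stages for abundant members that include PTTG1, CKS2, MAD2L2, AURKA, ANAPC13 and ANAPC15. PTTG1 differed by 0.38 in GV (-0.17 to 0.93) and 0.18 in MII (-0.45 to 0.81). CKS2 differed by 0.08 (-0.43 to 0.59) and -0.04 (-0.51 to 0.43), and MAD2L2 by 0.32 (-0.27 to 0.91) and -0.18 (-0.72 to 0.36). For CKS1B in GV, at -0.46 (-1.68 to 0.76), and for ANAPC11, at -0.10 (-1.11 to 0.91) in GV and -0.48 (-1.46 to 0.51) in MII, the interval held a 2-fold fall.

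**Figure D5:**
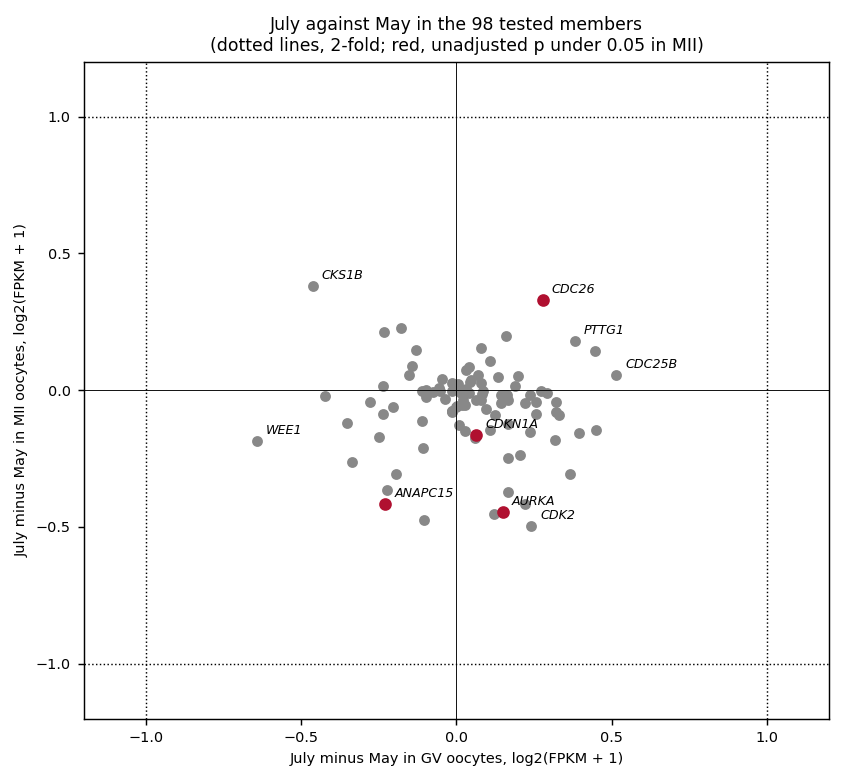
July minus May difference of each of the 98 tested genes on the log2(FPKM + 1) scale in GV (horizontal axis) and MII oocytes (vertical axis), with dotted lines at 2-fold and the 4 genes with an unadjusted p under 0.05 in MII in red. All points lie inside the 2-fold lines, with WEE1 farthest out in GV at -0.64 and CDK2 in MII at -0.50.

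Whether the change from GV to MII itself differed between the months was tested over all 24 libraries. Limma called 0 of 98 members, 0 had an unadjusted p under 0.05, and 0.21% of all genes were called and 1.8% had an unadjusted p under 0.05. The smallest unadjusted p values were those of CDK16 (0.0638), AURKA (0.0848) and CDK2 (0.0884), all with a lower log2 change in July than in May. For AURKA the July change minus the May change was -0.59 (95% interval -1.28 to 0.09). For CDK2 the difference was -0.74 (-1.59 to 0.12). CKS1B, called in July alone, differed by 0.84 (-0.62 to 2.30), CDK5 by -0.55 (-2.05 to 0.95) and MAD2L1 by 0.28 (-1.07 to 1.62). These intervals hold both no difference and differences of over 2-fold. For CKS2 (-0.77 to 0.54), CCNA2 (-0.78 to 0.77) and CHEK1 (-0.77 to 0.26) a 2-fold difference between the months lay outside the interval.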

How the data were processed

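RNA was measured by RNA-seq (Smart-seq2, paired reads) in 24 oocyte libraries. The submitters' processing notes name FastQC, STAR 2.5.3a, Partek and UMD3.1; the methods give UMD3.1.1. The authors trimmed and aligned the reads and deposited 1 normalized value per gene and library, read here as FPKM, with the coordinates printed here. The common total and the lowest value of 0.01 were read from the values; how they arose is not given in the sources used here. The values carry no absolute counts, and counting errors are therefore left out. Relative depth came from the steps between low values (99.5% of 47834 values were whole multiples within 0.1; 10 of 10 simulated libraries of 4000 genes were recovered). No pair of libraries was identical.

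Genes over 0.1 FPKM in at least 1 library (9526) entered limma 3.58.1 (R 4.3.3) on log2(FPKM + 1), with a trend, two-sided, fitting only the 2 groups compared; the difference between months used all 4. Partek Flow was not used here. Benjamini-Hochberg adjustment covered all genes tested, and single genes had an exact permutation test over 924 assignments of 6 and 6 libraries. Intervals are 95% limma intervals. In values simulated for July against May in GV (9526 genes), 200 genes with a mean log2(FPKM + 1) over 1 were given a known change. At a log2 change of 2, 198 passed the call and 178 had an adjusted p under 0.05. At 1.5 these were 189 and 130. Genes below that level were given no change, so the power for them was not tested. With none changed 59 genes passed the call, against 3 in the measured values. Each simulated gene took its measured mean and spread, but genes were drawn independently and from normal distributions. The simulation therefore does not match the measured values in every respect, and the power in the measured values can differ. Tables used Python 3.11.15, numpy 2.4.6, pandas 2.3.3 and matplotlib 3.10.9.

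The members and lists were chosen with earlier results of these data known. All 105 symbols were in the RefSeq gene table. Genes named with values were called members, led by the 6 higher and the 8 lower with the largest mean change (6 were called lower), the 10 most abundant, the 3 with the smallest p in each month comparison, and 37 listed of 41 meiotic regulators; PTTG1IP, CDK10, CDK20, CDK3, CDK4, CDK5RAP3, ANAPC4, ANAPC7, ANAPC10, ANAPC15, CDC40 and CCNT1 were named after their values were seen. The alternatives were pseudocounts of 0.1 and none, no filter, a mean of at least 1 FPKM, quantile or median-of-ratios scaling, a single fit over the 4 groups, leaving out the 3 shallow libraries, a block for the replicate number, the adjusted p alone, and leaving out each library. P-values measure the spread between these pools.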

Additional observations from a re-analysis of the deposited data

Results flagged for a closer look

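In 29 of 200 groups of 6 libraries (50 genes on log2(FPKM + 1)) the highest or lowest library stood apart. Its gap to the next was over Dixon's 95% limit as a share of the group's range. Independent normal values would pass that limit in about 1 in 20 groups. The groups are not independent, because all genes come from the same libraries, so the count is no test. July GV library 2 accounted for 12, May MII library 6 for 8 and May GV library 6 for 4, the 3 shallow libraries. They are given as values, with no explanation.

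July GV library 2 was high for PLK1 (28.3 FPKM, others 3.31 to 6.42), AURKA (199, others 80.1 to 102), CDK2AP1 (35.8, others 8.07 to 9.34), BUB3 (38.9, others 18.8 to 23.0), CDKN2AIPNL (17.2, others 9.71 to 11.3), CDC25C (7.33), CDC27 (1.79), BUB1B (1.68) and ANAPC5 (0.59). It was low for PTTG1 (440.3, others 941 to 1206), CKS1B (20.4, others 197 to 292) and MAD2L1 (6.62, others 18.9 to 30.4).

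May MII library 6 was high for CDKN2AIP (48.3, others 7 to 11.9), CDK2AP1 (29.5), CDC16 (1.11), WEE1 (1.02) and ANAPC5 (0.985), and low for CKS1B (104, others 286 to 467), CDK5 (6.01, others 32.1 to 51.2) and CDC25C (1.06). May GV library 6 was high for WEE1 (13.4, others 0.01 to 0.219) and CDC16 (1.30), and low for CDKN2AIPNL (4.69) and CDC23 (0.01).

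Single values elsewhere were CCND2 in May GV library 3 (0.39) and May MII library 4 (0.0907), CCND3 in July GV library 6 (0.171), CCNT1 in July MII library 2 (0.288) and CDC25A in July MII library 6 (0.166).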

How the results depend on the processing

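Direction never reversed for a called member in any alternative. In May the 19 calls became 34 with a pseudocount of 0.1 (21 higher, 13 lower) and 37 with none. In July the 14 calls became 29 with a pseudocount of 0.1 (13 and 16), 35 with none, and 28 (13 and 15) by adjusted p alone. Over all 9526 genes, 960 were called higher and 1668 lower in May with a pseudocount of 0.1, and 1371 and 2165 with none. In July these were 556 and 1965 with 0.1, and 830 and 2762 with none. A smaller pseudocount raises the fold of genes with low FPKM by construction. The difference between months gave 1 call without a pseudocount (CDC14B, group means of 0.0189 to 0.0835 FPKM). With the replicate block, 20 members were called in May (14 and 6) and 12 in July (6 and 6), where CKS1B and MAD2L1 were lost. Deviations of libraries with the same number correlated between -0.441 and 0.764 over the 4 comparisons, with at most 4 of 6 pairs over 0.1. Between the months 8 of 12 MII libraries correlated best with their own number, and at most 4 of 12 libraries did in the other comparisons. The main fits did not pair samples by number, and whether MII pools with the same number share a cow was not tested. With the replicate block July against May in MII gave 0 calls, and 5 members had an unadjusted limma p under 0.05. Leaving out each library kept 208 of 228 May calls and 154 of 168 July calls, with 15 or more members called in May and 11 or more in July. CDC37L1 (log2 change 0.96 to 1.07) was lost in 6 of 12 such fits, AURKA (0.98) and CDK2 (0.996) without May GV library 3, CHEK1 in July (0.94) without MII library 2, and PLK1 in May (-0.94 at the least) in 3 fits and under quantile normalization. July against May gave 0 calls in every alternative at both stages; without the shallow libraries 5 members had an unadjusted p under 0.05 at each stage. Depth limits the values under 0.1 FPKM most, above all in the shallow libraries.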
